A study of Mus musculus with 4 samples.

Results

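The comparison described here is that of Setdb1-deficient (KO) against wild-type (WT) macrophages after lipid A, and it rests on 2 of the 4 arrays of the series, KO lipid A and WT lipid A, with 1 array each. The other two arrays are the vehicle controls of the same genotypes and are used for the level without lipid A. Members were all genes whose probe sets carry a single gene symbol, 18193 genes, each read from its brightest probe set, and 12335 of them counted as detected because the brighter of the lipid A arrays reached its own median signal. Within these genes the account is centred on those lower in KO and on those higher in KO that lipid A did not induce in WT. WT mice were +/+:Setdb1 fl/fl and KO mice LysM Cre/+:Setdb1 fl/fl, so that both genotypes carried the floxed Setdb1 allele and only KO carried the Cre recombinase, and the strain is labelled C57BL6/J. LysM Cre is expressed from the lysozyme locus in macrophages and neutrophils, and the gene is lost only in cells in which the recombinase has acted. The cells were peritoneal exudate cells elicited with thioglycollate that adhered in culture, and they were given lipid A or vehicle for 4 h. The concentration of lipid A is 10 ng/ml in the description of the design and 10 ug/ml in the sample labels. The ages of the mice, and whether the cells of several mice were pooled, are not stated. With 1 array per condition there is no replicate error, no test was made, and no difference below can be set against a spread between mice.

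Setdb1 is a histone methyltransferase that places methyl groups on lysine 9 of histone H3, a mark of silent chromatin, and it is best known for silencing endogenous retroviruses and developmental genes together with KRAB zinc finger proteins. Lipid A is the part of bacterial lipopolysaccharide that is recognised by the receptor complex of Tlr4 and Ly96. Tlr4 signals through one arm to NF-kB, which drives cytokine genes, and through another arm to interferon-beta, which drives interferon-stimulated genes. Thioglycollate-elicited macrophages are largely derived from recruited monocytes, whereas the undisturbed peritoneum holds large resident macrophages marked by Gata6 and many B cells.

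Signals are linear probe set intensities in arbitrary units, and a pair of values for a genotype is given with vehicle first and lipid A second. The array medians were 65.1 and 74.8 in WT and 84.2 and 75.8 in KO, and signals below them were treated as background. Over the detected genes, KO and WT under lipid A differed by a median of -0.01 on the log2 scale. Setdb1 itself read 589 and 521 in WT and 346 and 386 in KO, that is 1.35-fold lower in KO under lipid A, and the position of its probe set relative to the deleted part is not known here, so this does not check the genotype. Lyz2, the lysozyme gene that hosts the Cre, read 75503 and 79311 in WT and 64032 and 63122 in KO. Of 19 measured core macrophage identity genes, 17 reached the median on both lipid A arrays, and among the receptor components Tlr4 read 1568 in WT and 1282 in KO under lipid A and Ly96 2062 in WT and 2139 in KO. Several results below move with markers of other cells. The summed signal of 17 measured B cell markers was 3943 and 3723 in WT and 10919 and 10438 in KO. That of 16 neutrophil markers was 7507 and 6373 in WT and 2955 and 3366 in KO. That of 25 mesothelium and fibroblast markers was 3672 and 3751 in WT and 2393 and 2766 in KO. In such bulk samples fewer cells of a type and less RNA per cell cannot be told apart.

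Under lipid A, 707 of the 12335 detected genes (5.73%) were over 3-fold lower in KO and 783 (6.35%) were over 3-fold higher, of which 739 (5.99%) were not induced over 2-fold by lipid A in WT. Over 2-fold, the numbers were 1272 lower (10.3%) and 1307 higher (10.6%). Most of these genes were dim. The KO lipid A signal was below its median for 646 of the 707 lower genes, and their raw ratios therefore rest on background. When every signal below the array median was raised to that median, which turns a ratio against background into a lower bound, 81 genes (0.657%) stayed over 3-fold lower, 158 (1.28%) stayed over 3-fold higher and 114 (0.924%) stayed over 3-fold higher without induction in WT. These 81 and 114 genes are the ones described below. Without induction means at most 2-fold after the same raising, so a rise in WT from a vehicle signal below the median can be missed. At the threshold, Lcn2 with a bounded fold of 3.012 and Calhm2 with 3.008 lay just inside the lower set and Gpsm2 with 2.999 and 5730409E04Rik with 2.992 just outside. Sorbs3 with 3.004 and AI504432 with 3.003 lay just inside the higher set and S100a4 with 2.983 and Neo1 with 2.979 just outside. Technical spread was measured between probe sets that read one gene and reached the median on both arrays. The SD of their log2 differences within a gene was 0.41 over 4260 genes, corresponding to 1.33-fold. With only the brighter array required to reach its median, and dim signals not raised, it was 1.05 over 5544 genes (2.07-fold). The dimmer array was below its median for 20 of the 81 lower and 41 of the 114 higher genes, so the smaller SD does not cover them.

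**Figure D1:**
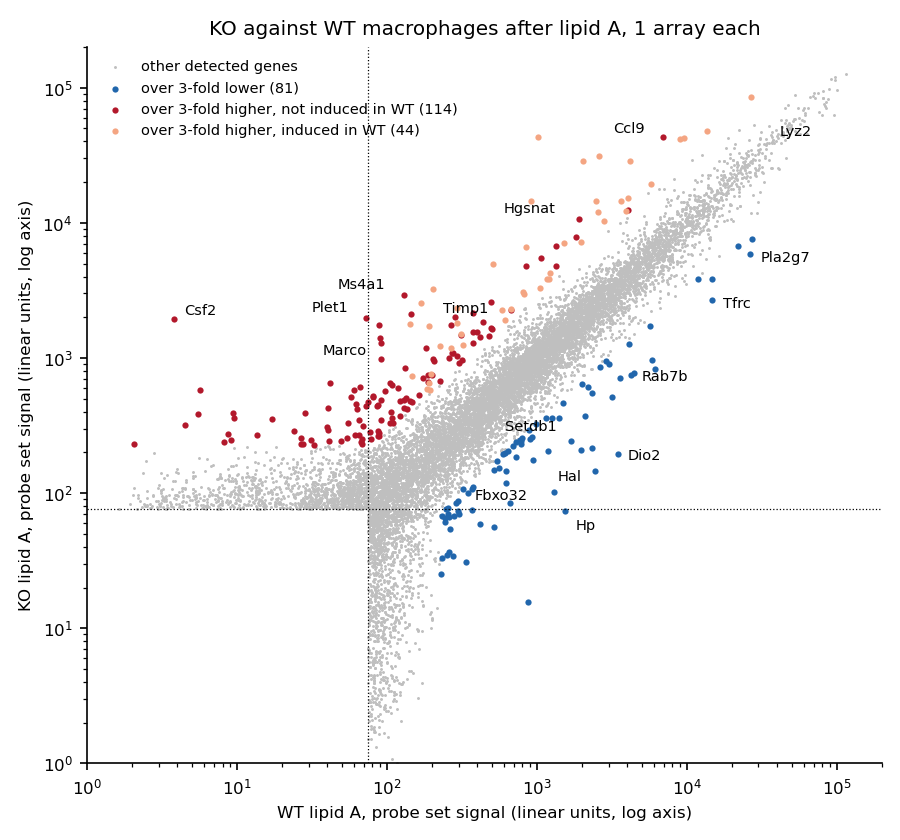
Each point is 1 detected gene, with its probe set signal in WT lipid A on the horizontal axis and in KO lipid A on the vertical axis (linear units, log axes, 1 array each), and dotted lines mark the array medians of 74.8 and 75.8. Blue marks the 81 genes over 3-fold lower in KO, red the 114 over 3-fold higher without induction in WT and pale orange the 44 over 3-fold higher and induced in WT, all with signals below the median raised to it.

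The vehicle arrays do not enter the ratio of KO over WT under lipid A, and they give the level without it. WT vehicle does enter the choice of the 114 higher genes, through the limit on induction in WT. It is not stated whether vehicle and lipid A cultures came from the same mice. Of the 81 lower genes, 35 (43.2%) were over 2-fold lower in KO under vehicle as well, against 1.94% of the detected genes, 44 were within 2-fold and 2 were over 2-fold higher. Of the 114 higher genes, 74 (64.9%) were over 2-fold higher under vehicle as well, 39 were within 2-fold and 1 was over 2-fold lower. The share over the detected genes was 4.23%, but without the limit on induction, so these shares do not compare like with like. The detected genes also include genes near the median, for which raising dim signals leaves little room for a 2-fold difference. The 81 and 114 genes were chosen well above it on 1 array, so the 1.94% is no like base either. Among the 44 higher genes induced in WT, which the limit on induction left out, 7 (15.9%) were over 2-fold higher under vehicle. Under lipid A, the genes also lower under vehicle had a median log2 difference of -2.09 and the others -1.76, and the genes also higher under vehicle had 2.07 and the others 1.86. The median signal of the KO vehicle array was 0.37 above that of WT vehicle on the log2 scale. The lower and higher genes are taken up in these 4 groups.

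**Figure D2:**
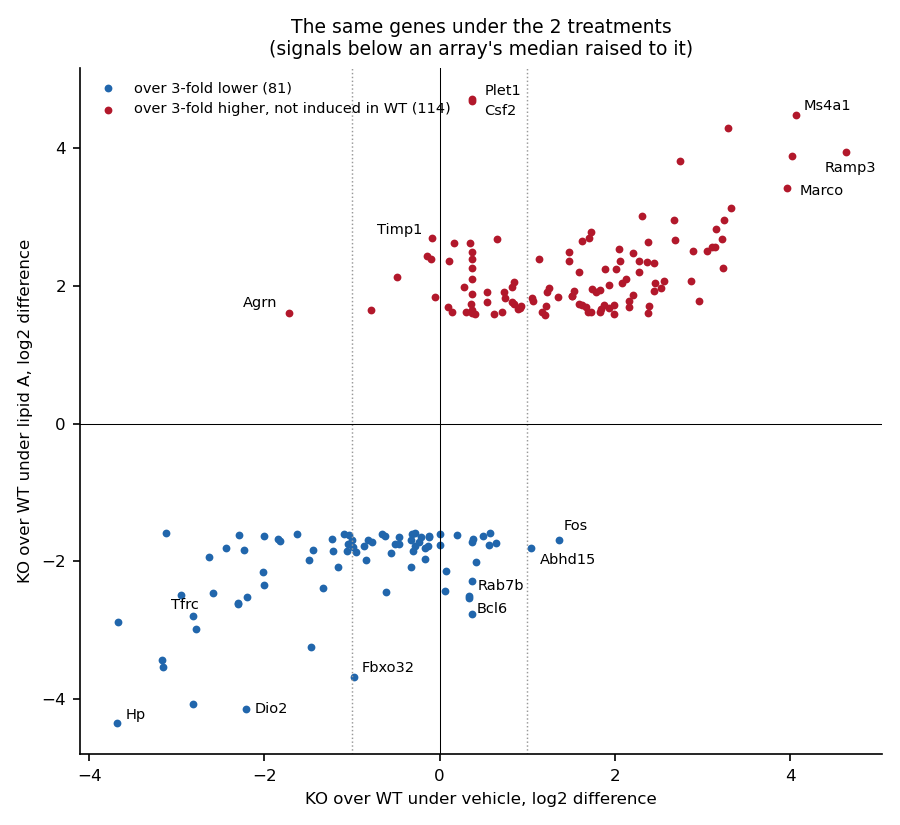
Each point is 1 of the 81 lower genes (blue) or the 114 higher genes not induced in WT (red), with the log2 difference of KO over WT under vehicle on the horizontal axis and under lipid A on the vertical axis, after signals below an array's median were raised to it, from 1 array per condition. Dotted lines mark 2-fold under vehicle: 35 blue points lie left of the left line and 74 red points right of the right line.

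Promoters of 6 genes on which the description turns, 3 lower and 3 higher in KO, are shown so that the letters before and after their starts can be read beside the values. They run from 250 bases before to 50 bases after the RefSeq start in GRCm38.p6, and capitals mark matches on either strand to GAAANNGAA (the core of the interferon response element), GGANNTTCC (kappaB), TGANTCA (AP-1) or TTCNNNGAA (STAT), and matches to different motifs can overlap. Dio2 was lower under both treatments (chr12:90738989-90739288, minus strand), Bcl6 was lower under lipid A and not under vehicle (chr16:23981234-23981533, minus strand, the one of its 2 listed windows with more matches), and Ifit3 is an interferon-stimulated gene (chr19:34583279-34583578, plus strand). Plet1 (chr9:50494275-50494574, plus strand), Csf2 (chr11:54249850-54250149, minus strand) and Ccl9 (chr11:83578587-83578886, minus strand) were over 3-fold higher under lipid A and not over 2-fold higher under vehicle.

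Dio2: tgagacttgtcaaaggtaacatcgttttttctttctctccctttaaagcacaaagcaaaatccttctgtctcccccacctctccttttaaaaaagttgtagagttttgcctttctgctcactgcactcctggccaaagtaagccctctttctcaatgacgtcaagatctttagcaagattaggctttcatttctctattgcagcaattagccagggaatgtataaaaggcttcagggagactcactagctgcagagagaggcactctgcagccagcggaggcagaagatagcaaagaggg
Bcl6: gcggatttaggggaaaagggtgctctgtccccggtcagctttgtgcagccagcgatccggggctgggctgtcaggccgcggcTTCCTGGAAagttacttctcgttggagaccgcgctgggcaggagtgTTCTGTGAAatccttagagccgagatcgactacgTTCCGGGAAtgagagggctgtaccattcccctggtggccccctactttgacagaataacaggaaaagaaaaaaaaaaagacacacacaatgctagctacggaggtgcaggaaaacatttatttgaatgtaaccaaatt
Ifit3: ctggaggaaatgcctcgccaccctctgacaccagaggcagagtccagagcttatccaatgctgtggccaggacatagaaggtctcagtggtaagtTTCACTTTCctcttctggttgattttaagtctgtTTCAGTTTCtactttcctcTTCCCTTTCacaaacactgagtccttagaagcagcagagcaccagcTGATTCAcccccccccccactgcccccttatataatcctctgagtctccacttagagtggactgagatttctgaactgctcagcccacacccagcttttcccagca
Plet1: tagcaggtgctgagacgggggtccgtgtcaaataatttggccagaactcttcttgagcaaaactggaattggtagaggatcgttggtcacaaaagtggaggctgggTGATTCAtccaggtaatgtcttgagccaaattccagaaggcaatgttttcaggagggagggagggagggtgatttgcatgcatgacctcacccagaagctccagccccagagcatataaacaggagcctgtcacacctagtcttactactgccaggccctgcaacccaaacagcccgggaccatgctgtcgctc
Csf2: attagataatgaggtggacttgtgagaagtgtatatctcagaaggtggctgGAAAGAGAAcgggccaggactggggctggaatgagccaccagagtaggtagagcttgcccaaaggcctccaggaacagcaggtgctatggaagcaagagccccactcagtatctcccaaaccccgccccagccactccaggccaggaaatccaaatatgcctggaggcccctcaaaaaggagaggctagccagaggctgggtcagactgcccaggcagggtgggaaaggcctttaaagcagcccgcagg
Ccl9: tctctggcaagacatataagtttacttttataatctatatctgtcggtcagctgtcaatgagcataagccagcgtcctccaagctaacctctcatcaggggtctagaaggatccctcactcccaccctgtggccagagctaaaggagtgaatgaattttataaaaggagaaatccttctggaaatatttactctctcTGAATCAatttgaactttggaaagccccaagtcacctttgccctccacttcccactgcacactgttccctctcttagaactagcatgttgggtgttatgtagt

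The Dio2 window held no match, the Bcl6 window 3 to STAT, the Ifit3 window 3 to GAAANNGAA and 1 to AP-1, the Plet1 and Ccl9 windows 1 each to AP-1 and the Csf2 window 1 to GAAANNGAA. Over the groups, promoters were found for 65 of the 81 lower and 80 of the 114 higher genes, and a gene can have several, partly overlapping windows. GAAANNGAA was in 7.32% of 82 windows of lower genes and 11.2% of 116 windows of higher genes, against 8.56% of all 32851 windows and 7.16% of 12605 windows of detected genes. AP-1 was in 6.1% of the lower and 15.5% of the higher windows, against 7.81% of all and 5.49% of detected ones. STAT was in 8.54% and 9.48%, against 8.3% of all and 7.02% of detected windows. KappaB was in 0 of 82 lower and 1 of 116 higher windows, against 4.26% of all and 4.46% of detected ones. Of 24 windows of measured interferon-stimulated genes, 12 held GAAANNGAA. A match is only a match of letters, and a missing one says nothing of binding outside the window.

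The genes lower in KO under both treatments included enzymes, secreted proteins and carriers whose signals in the WT cultures were well above the array medians with and without lipid A. Hp, which encodes haptoglobin, the scavenger of free haemoglobin, read 1081 and 1543 in WT and 68.8 and 73.4 in KO, so that both KO signals were below their array medians and the fold was at least 20.4-fold under lipid A and at least 12.8-fold under vehicle. Dio2, the deiodinase that turns thyroxine into active thyroid hormone, read 6221 and 3454 in WT and 1349 and 196 in KO, 17.7-fold lower under lipid A, and both of its further detected probe sets were lower as well. Hal, which starts the breakdown of histidine, read 3089.9 and 2448 in WT and 439 and 146 in KO and was 16.8-fold lower. In each of these genes both KO arrays lay below both WT arrays.

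Mmp8, the collagenase best known from neutrophils, read 3599 and 2346 in WT and 399 and 217 in KO, 10.8-fold lower under lipid A. It moved with other neutrophil markers: S100a8 read 1727 and 1721 in WT and 569 and 676 in KO and Lcn2, which binds iron-carrying siderophores, read 786 and 983 in WT and 90.4 and 327 in KO. The order was not shared by the whole list, since Csf3r, the receptor for granulocyte colony-stimulating factor, was 2.16-fold higher in KO at 731 in WT and 1583 in KO, and Mpo and Elane, which encode granule enzymes of neutrophil precursors, were below the median in both lipid A arrays. Of 16 measured neutrophil markers, 3 were over 2-fold lower and 1 over 2-fold higher with signals below the median raised to it, against 2.65% lower and 2.9% higher over all 18193 genes treated in the same way, and the part of neutrophils in the Mmp8 difference was not tested.

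Among genes of lipid and hormone metabolism, Mgll, which releases glycerol and fatty acid from monoacylglycerol, read 1439 and 1981 in WT and 522 and 209 in KO and was 9.48-fold lower in KO under lipid A. Pla2g7, the plasma enzyme that inactivates platelet-activating factor, was among the brightest lower genes with 26079.5 and 26269.9 in WT and 6452 and 5868 in KO, a 4.48-fold difference with nearly the same values under both treatments. Aoah, which removes acyl chains from lipid A itself, read 1378 and 1263 in WT and 255 and 363 in KO, 3.48-fold lower, with both further probe sets lower. Abca1, the exporter of cholesterol, was just under the 3-fold threshold at 6766 and 12559 in WT and 2074 and 4237 in KO, a 2.96-fold difference. Gstm2, a glutathione transferase, read 1993 and 1685 in WT and 284 and 242 in KO, 6.97-fold lower, and its relative Gstm1 read 16674 and 14016 in WT and 10539 and 6464 in KO, 2.17-fold lower. In these 6 genes the KO signal was below the WT signal under each treatment.

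Tfrc, the transferrin receptor through which cells take up iron, read 17795 and 14744 in WT and 2962 and 2691 in KO, so that it was 5.48-fold lower under lipid A and 6.01-fold lower under vehicle, and both further probe sets were lower. The other 13 measured members of a list of widely expressed reference genes were all within 2-fold. Other iron genes did not share one direction. Slc11a1, the metal transporter of the phagosome membrane, was 2.26-fold lower at 26771 in WT and 11836 in KO. Slc40a1, the iron exporter ferroportin, was dim at 104 in WT and 18.9 in KO, where the medians were 74.8 and 75.8. Slc39a14, a zinc and iron importer, was 2.83-fold higher at 818 in WT and 2310.2 in KO. Of 19 measured genes of iron and heme handling, 5 were over 2-fold lower and 1 over 2-fold higher when dim signals were raised to the median, against the same 2.65% and 2.9% over all genes.

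Of growth control, Cdkn1c, the imprinted inhibitor p57 of cyclin-dependent kinases, read 6422 and 4425 in WT and 1399 and 772 in KO, 5.73-fold lower. Bex1, a small adaptor protein best known from neurons, read 9686 and 5841 in WT and 1965 and 959 in KO, 6.09-fold lower. Among membrane and secreted proteins, Tmem178, of the endoplasmic reticulum, read 2770.1 and 6114 in WT and 218 and 828 in KO, and here both genotypes were brighter with lipid A than with vehicle while KO stayed 7.38-fold below WT. Cfb, complement factor B, had the same form with 937 and 2095 in WT and 121 and 372 in KO, 5.63-fold lower. The secreted protease gene Htra1 read 789.6 and 663 in WT and 115 and 84.0 in KO (7.90-fold). The adhesion molecule gene Clmp read 1519 and 3147 in WT and 309 and 510.4 in KO (6.17-fold) and the organic anion transporter gene Slco4a1 4913 and 3592 in WT and 1229 and 709 in KO (5.07-fold). Fblim1, which encodes a partner of filamin, was at least 11.6-fold lower at 877 in WT and 15.6 in KO under lipid A. Hacd4, for the elongation of fatty acids, was 4.26-fold lower, while the muscle kinase gene Speg, 5.25-fold lower on its brightest probe set, was lower on only 1 of 3 further detected probe sets.

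Bright genes with smaller folds were also found. Mfge8, which links apoptotic cells to phagocytes, read 30967 and 27038 in WT and 11407 and 7578 in KO (3.57-fold lower). Ctsk, a lysosomal protease, read 31728 and 29630.4 in WT and 20245 and 14190.2 in KO (2.09-fold). Efhd2, a calcium-binding protein, read 22001 and 22081 in WT and 6214 and 6758 in KO (3.27-fold), and its further probe set was not lower. All 3 were lower in KO under both treatments. Malat1, a nuclear noncoding RNA, read 24357 and 14777 in WT and 3929.9 and 3856 in KO, 3.83-fold lower, and 4 of its 6 further detected probe sets were lower. Chil3, a lectin of alternatively activated macrophages, read 1643 and 1481 in WT and 458 and 463 in KO, 3.20-fold lower. Over the 35 genes lower under both treatments, 17 had further detected probe sets, and in 14 of these all pointed the same way. Aoah, Malat1, Chil3, S100a8, Mpo and Elane were chosen for mention after their values were seen.

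**Figure D3:**
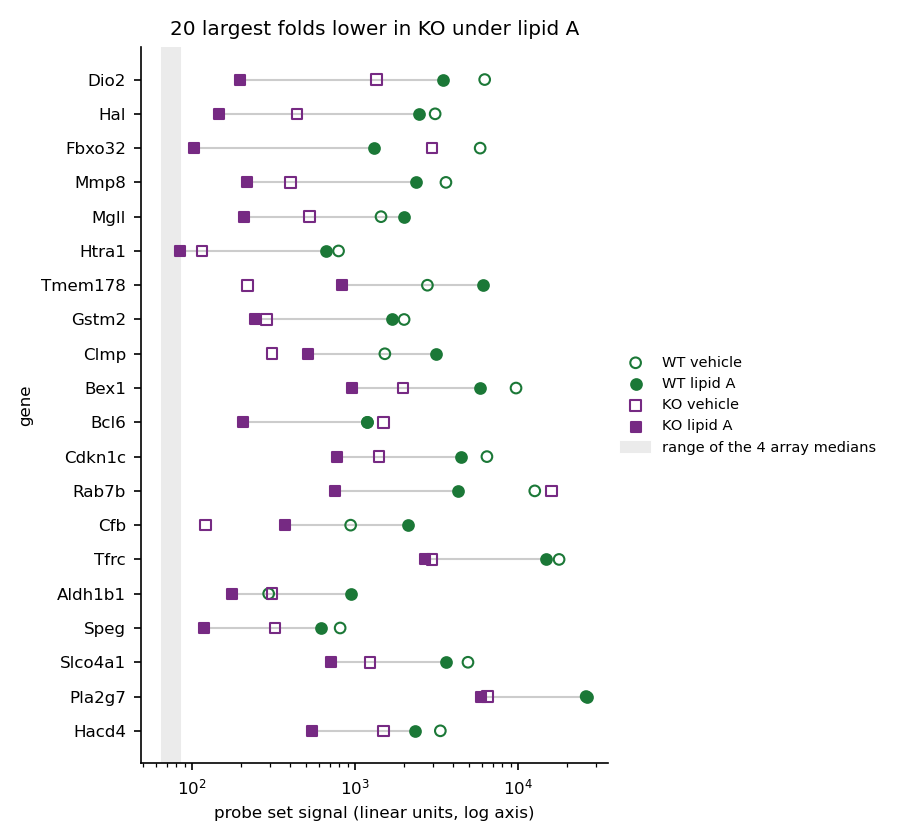
The 20 genes with the largest fold lower in KO than in WT under lipid A with both signals reaching the median, are plotted by probe set signal (linear units, log axis) on each of the 4 arrays, with green circles for WT, purple squares for KO, open symbols for vehicle and filled symbols for lipid A. The grey line joins the lipid A arrays and the grey band spans the 4 array medians; Bcl6, Rab7b and Aldh1b1 are the genes whose open KO square lies right of the open WT circle.

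A second group of 46 genes was over 3-fold lower in KO under lipid A and not over 2-fold lower under vehicle. Bcl6, a transcriptional repressor that limits inflammatory genes and B cell differentiation, read 1186 and 1185 in WT and 1493 and 204 in KO: both WT arrays and KO vehicle lay between 1185 and 1493 and KO lipid A was 5.81-fold below WT lipid A. Rab7b, a small GTPase of late endosomes known to promote the breakdown of Tlr4, read 12622 and 4249 in WT and 15936 and 747 in KO, 5.69-fold lower under lipid A, and it was 1.26-fold higher in KO under vehicle. Fbxo32, a subunit of a ubiquitin ligase known from muscle wasting, read 5836 and 1302 in WT and 2956 and 102 in KO, 12.8-fold lower, and with 1.97-fold under vehicle it lay at the border of this group. In these 3 genes the KO lipid A array was the lowest of the 4, and all detected further probe sets, 1 for Bcl6 and 2 each for Rab7b and Fbxo32, were lower.

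The transcription factor genes Fos and Klf4 had the same form. Fos, of the AP-1 factors, read 1416 and 786 in WT and 3639.6 and 243 in KO, 3.23-fold lower under lipid A, whereas it was 2.57-fold higher in KO under vehicle. Klf4, a factor of monocyte differentiation, read 1788 and 4084 in WT and 2328 and 1274 in KO, 3.21-fold lower under lipid A. The other immediate early factors did not go with them: of 22 measured, 7 were over 2-fold higher and these 2 over 2-fold lower (2.9% and 2.65% over all genes), and Nr4a3, a nuclear receptor, was 9.01-fold higher at 191 in WT and 1723 in KO, while its further detected probe set was lower. Cebpa, a core factor of the myeloid lineage, read 2744 and 1175 in WT and 3260.1 and 446 in KO, 2.64-fold lower under lipid A. Tfeb, a factor for lysosome genes, read 602 and 396 in WT and 659 and 166 in KO, 2.39-fold lower.

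Genes of the chromatin machinery did not share one direction under lipid A. Dnmt3a, a DNA methyltransferase, read 13896 and 6573 in WT and 10005 and 2342 in KO, 2.81-fold lower under lipid A and 1.39-fold lower under vehicle, and all 4 further detected probe sets were lower. Setdb2, a relative of Setdb1, read 444 and 1753 in WT and 402 and 745 in KO, 2.35-fold lower. Atf7ip, the cofactor that stabilises Setdb1, was 2.21-fold higher at 1086 and 559 in WT and 2205 and 1233 in KO. Of 20 measured H3K9 methyltransferases and partners of Setdb1, 2 were over 2-fold lower and 1 over 2-fold higher (2.65% and 2.9% over all genes). Their median log2 difference was 0.02, against -0.01 over the genes that reached the median in both arrays. Of 19 measured histone lysine demethylases, 1 was over 2-fold lower and 2 over 2-fold higher, beside the same shares.

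Surface and secreted molecules of this group included Tnfsf10, the death ligand TRAIL, which read 37.5 and 514 in WT and 25.9 and 55.8 in KO, at least 6.78-fold lower, with both further probe sets lower. Fcgr4, an activating receptor for IgG, read 347 and 622 in WT and 277 and 147 in KO (4.24-fold). Cd1d1, which presents lipids to T cells, read 1446 and 1413 in WT and 808 and 359 in KO (3.93-fold, and 1.79-fold lower under vehicle). Cd69, an early activation marker, was 3.31-fold lower at 3006 in WT and 909 in KO, and both vehicle arrays were below the median. Il1f9, which encodes a cytokine of the interleukin-36 family, was also lower, at 167 and 515 in WT and 43.2 and 149 in KO (3.45-fold, and at least 1.99-fold lower under vehicle, where KO was below its median), as was S1pr2, a receptor for sphingosine-1-phosphate, at 3757 and 2879 in WT and 3083 and 955 in KO (3.02-fold). Of metabolic genes, Aldh1b1, a mitochondrial aldehyde dehydrogenase, read 294 and 945 in WT and 308 and 174 in KO (5.42-fold), and Ppargc1b, a coactivator for mitochondrial genes, was at least 3.65-fold lower at 277 in WT and 34.3 in KO, and 1.94-fold lower under vehicle. Dim genes with bounds were Oit3 (at least 5.46-fold), Cdca7l (at least 4.89-fold), Ccdc84 (at least 4.43-fold), Ankmy2 (at least 4.01-fold), Klhl21 (at least 3.92-fold) and Ptpn3 (at least 3.67-fold), of which Ccdc84 was not lower on its further probe set and Ankmy2 on 1 of 2. Over the 46 genes, 23 had further detected probe sets, and in 19 of them all pointed the same way. Klf4, Cd69, Cd1d1, Il1f9 and S1pr2 were chosen for mention after their values were seen.

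Interferon-stimulated genes were lower in KO by smaller folds, and their summed signal was 31848 and 372136 in WT and 19015 and 273404 in KO. All 30 measured members reached the median in both lipid A arrays, and 27 of them were lower in KO, 6 over 2-fold and 0 over 3-fold. Of the 9685 genes that reached the median in both lipid A arrays, 50.9% were lower in KO and 49.1% higher, and 2.65% of all genes were over 2-fold lower. Ifit3 and Ifit2 belong to a family that binds viral RNA or restricts its translation. Ifit3 read 122 and 9869 in WT and 49.8 and 3528 in KO (2.80-fold lower). Ifit2 read 302 and 29509 in WT and 12.8 and 11740.4 in KO (2.51-fold lower). Bst2, the tether that holds budding virus, read 3489 and 6506 in WT and 1070.3 and 2583 in KO (2.52-fold). Isg20, an exonuclease, read 149 and 1887 in WT and 102 and 804 in KO (2.35-fold). The remaining genes over 2-fold lower were Mx2 (2.23-fold) and Dhx58 (2.08-fold). Ifnb1, the gene of interferon-beta, was below the median in WT lipid A and read 108 in KO lipid A, while Ifnar1, a chain of its receptor, was 1.94-fold higher in KO at 1244 in WT and 2417 in KO.

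Of 10 measured interferon-inducible GTPases, 7 were lower in KO, with Gbp6 (2.31-fold) and Irgm2 (2.04-fold) over 2-fold, against the same shares. Under vehicle, 12 of the 30 interferon-stimulated genes and 4 of the 10 GTPases were over 2-fold lower in KO with dim signals raised, against 1.36% of all genes. A list of genes served by Nrf2, the factor of the oxidative stress response, and of metallothioneins had 12 of 17 members lower, with Nqo1 (2.66-fold), Gstm1 and Gclm (2.09-fold) over 2-fold lower and the metallothionein genes Mt1 and Mt2 over 2-fold higher. Of 27 lysosome genes, all measured in both arrays, 20 were lower with a median log2 difference of -0.18, and of 18 genes of fatty acid oxidation 13 were lower with a median of -0.15. These counts of lower members stand beside the 50.9% of genes lower among those measured in both arrays, and those over 2-fold beside 2.65% lower and 2.9% higher over all genes.

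**Figure D4:**
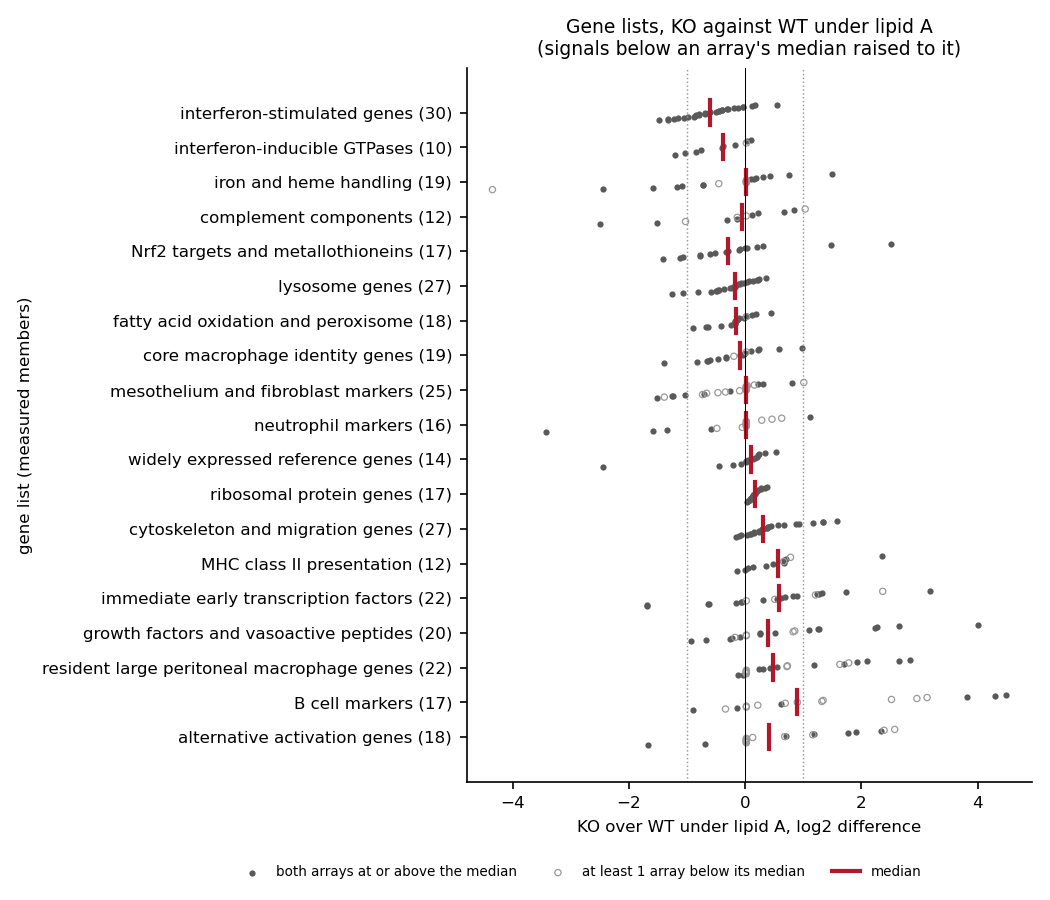
Each point is 1 measured member of a gene list, placed by its log2 difference of KO over WT under lipid A (1 array each) with signals below an array's median raised to it, and the red bar is the median over all measured members, whose number stands in brackets. Filled points reached the median in both arrays; the interferon-stimulated genes lie mostly left of 0 and the ribosomal protein genes all right of it, while the B cell and resident macrophage lists have open and filled points far to the right.

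The genes higher in KO under both treatments without induction in WT were led by B cell genes. Ms4a1, which encodes the B cell surface protein CD20, read 143 and 130.3 in WT and 2399 and 2931 in KO, 22.5-fold higher under lipid A. Ighm, the heavy chain of IgM, read 180.3 and 88.7 in WT and 1760.3 and 1739 in KO (19.6-fold). Of its 4 further detected probe sets, 3 were higher, by 1.11-fold to 41.3-fold, and the other was 2.11-fold lower. Fcmr, the receptor for IgM, read 182 and 91.2 in WT and 1218 and 1285 in KO (14.1-fold). Cd79b, of the B cell receptor, was at least 8.75-fold higher, Cd72 at least 7.76-fold, Bank1 at least 7.74-fold and the light chain gene Iglv1 at least 5.72-fold, each with WT lipid A below its median. Mzb1, a chaperone of antibody secretion, was 6.43-fold higher, the light chain gene Igkv8-30 5.91-fold, Ly6d 5.80-fold and Ltb, the cytokine lymphotoxin-beta, 6.27-fold. Cd22 did not go with them, at 1949 and 1880.4 in WT and 1618 and 1012 in KO. Of 17 measured B cell markers, 8 were over 2-fold higher under lipid A and 8 under vehicle, against 2.9% and 3.45% of all genes. Of these markers, 14 reached the median in KO lipid A against 7 in WT lipid A, and the part of B cells in the differences was not tested. Genes of immunoglobulin chains share sequence with their relatives, and their probe sets may read several of them.

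Several genes of large resident peritoneal macrophages were also higher in KO under both treatments. Prg4, which encodes the lubricant lubricin, read 217 and 285 in WT and 1931 and 2027 in KO (7.10-fold). Fcna, which encodes ficolin A, read 1917 and 1817 in WT and 8392 and 7789.9 in KO (4.29-fold). Gata6, the transcription factor that defines these cells, read 114 and 26.9 in WT and 406 and 231 in KO, at least 3.09-fold higher under lipid A. Tgfb2 was 6.23-fold higher, the adhesion molecule gene Icam2 3.77-fold, P-selectin gene Selp at least 3.44-fold, the coagulation factor gene F5 3.25-fold and the complement receptor gene Vsig4 3.05-fold. The list of these genes does not hold Vsig4. It had 22 measured members, of which 16 were detected and 12 reached the median in both lipid A arrays. Timd4 was below the median in both, and 2 detected members were lower in KO by under 2-fold. Of 22 measured members of the list, 8 were over 2-fold higher and 0 over 2-fold lower under lipid A, and 10 and 0 under vehicle, against 2.9% of all genes higher under lipid A and 3.45% under vehicle, and the part of resident cells in the culture was not tested. Fn1, fibronectin, which these cells express as well, read 1035 and 1344 in WT and 5636 and 6768 in KO (5.03-fold).

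Other genes of this group belong to neither list. Ramp3, a partner of receptors of the calcitonin family, read 79.8 and 90.3 in WT and 1979 and 1399 in KO (15.5-fold). Serpinb1a, an inhibitor of neutrophil elastase, read 199 and 144 in WT and 3226 and 2131 in KO (14.8-fold). Hgsnat, a lysosomal enzyme that acetylates heparan sulfate, was a bright gene of the group, with 2582 and 1904 in WT and 11906 and 10676 in KO (5.61-fold), beside the lysosome list, of which 0 of 27 members were over 2-fold higher. Hmga2, a chromatin protein mainly of embryonic cells, read 148 and 66.2 in WT and 729.8 and 605 in KO (at least 8.08-fold), with both further probe sets higher. Cdkn2a, the locus of the inhibitors p16 and p19, read 164 and 204 in WT and 1545 and 980.4 in KO (4.80-fold). Fabp7, a fatty acid-binding protein, read 547 and 376 in WT and 4054 and 2146 in KO (5.71-fold). Marco, a scavenger receptor, read 6.88 and 91.6 in WT and 1015 and 979.7 in KO (10.7-fold).

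Mt2, a metallothionein that binds zinc, read 428 and 850.4 in WT and 1194 and 4815 in KO (5.66-fold), and its neighbour in function Mt1 5452 and 3604 in WT and 7904 and 10029 in KO (2.78-fold). Ifitm6 was 6.37-fold higher, the iRhom gene Rhbdf1 6.47-fold, the lectin gene Clec10a at least 5.95-fold and the lymphocyte GTPase gene Gimap4 at least 6.87-fold. S100a4, which encodes a calcium-binding protein of motile cells, was among the brightest, at 9209 and 5538 in WT and 27168 and 16519 in KO (2.98-fold). P2rx7, the ATP-gated channel, read 1435 and 1405 in WT and 4753 and 4016 in KO (2.86-fold), with 1 of 2 further probe sets higher. Igf1 read 2221 and 1897 in WT and 5263 and 4516 in KO (2.38-fold), with all 3 higher. Of the 74 genes, 26 had further detected probe sets, all pointing the same way in 22. Fcna, Selp, F5, Vsig4 and Igf1 were chosen for mention after their values were seen.

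**Figure D5:**
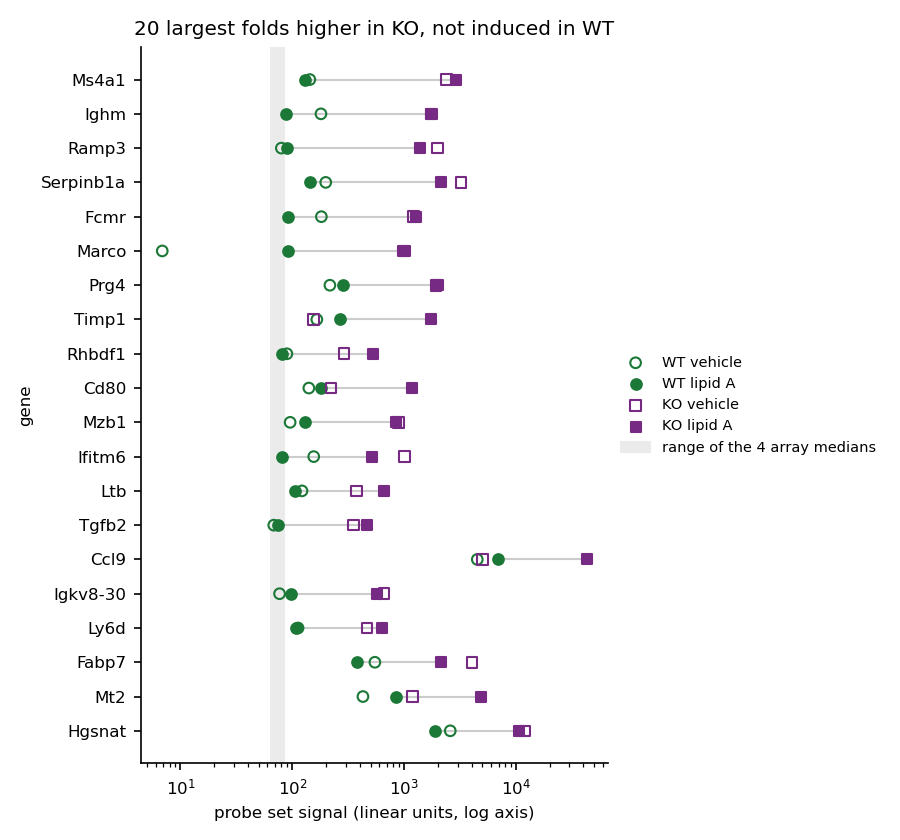
The 20 genes with the largest fold higher in KO than in WT under lipid A, with both signals reaching the median and without induction in WT, are plotted by probe set signal (linear units, log axis) on each of the 4 arrays, with symbols as in the plot of the lower genes. For Timp1, Cd80 and Ccl9 the open KO square lies near the green circles and only the filled square is far right, whereas for Ms4a1, Ighm and Ramp3 both KO squares are far right.

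A further 40 genes were over 3-fold higher in KO under lipid A, not induced over 2-fold in WT and not over 2-fold higher under vehicle. Csf2, the growth factor GM-CSF, read 4.02 and 3.78 in WT and 3.14 and 1933 in KO, at least 25.8-fold higher, with the other three arrays far below their medians. Plet1, a surface protein of progenitor and epithelial cells, read 16.6 and 72.4 in WT and 8.73 and 1965 in KO (at least 26.3-fold), with both further probe sets higher. Ccl9, a chemokine of myeloid cells, was the brightest at 4504 and 6909 in WT and 5044 and 42799 in KO, 6.19-fold higher. Timp1, the inhibitor of matrix metalloproteinases, read 166 and 269 in WT and 156 and 1741 in KO (6.48-fold). Cd80, which costimulates T cells, read 141 and 182 in WT and 221 and 1176 in KO (6.45-fold).

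The group held genes of cytokines and of enzymes that make small mediators. Il23a, the p19 chain of interleukin-23, read 422 in KO lipid A and was below the median on the other arrays (at least 5.64-fold), as was Il10, the anti-inflammatory interleukin-10, with 275 (at least 3.68-fold), and Ccl22, a chemokine for regulatory T cells, with 392 (at least 5.24-fold). Lif, of the interleukin-6 family, read 78.2 and 87.6 in WT and 58.7 and 451 in KO (5.15-fold). Il1rn, the natural antagonist of the interleukin-1 receptor, read 2269 and 4065 in WT and 2499 and 12533 in KO (3.08-fold), with both further probe sets higher. Tslp, a cytokine of barrier tissues, read 8.57 and 121 in WT and 1.19 and 372 in KO (3.07-fold). Genes of small mediators were Sphk1, which makes sphingosine-1-phosphate, at 423 and 494 in WT and 396 and 2588 in KO (5.24-fold), Hdc, which makes histamine, at 320.4 in KO lipid A (at least 4.28-fold), and Penk, the precursor of enkephalins, at 360.4 (at least 4.82-fold). Hdc and Penk were below the median on the other three arrays.

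Spry1, a feedback inhibitor of receptor tyrosine kinases, read 93.7 and 91.0 in WT and 85.1 and 491 in KO (5.40-fold), and Upp1, which breaks down uridine, was at least 6.15-fold higher. Retnla, a gene of alternatively activated macrophages, read 922 and 490.3 in WT and 1345 and 1673 in KO (3.41-fold), the opposite of Chil3 from the same list. Of 18 measured alternative activation genes, 7 were over 2-fold higher and 1 over 2-fold lower (2.9% and 2.65% over all genes), and the former were Retnla, Clec10a, Ccl17, Ccl22, Il4ra, Fn1 and Socs2 and the latter Chil3. Clec10a, Ccl17 and Ccl22 are bounds against a dim WT signal, and only 7 of the 18 genes reached the median in both lipid A arrays. Arg1 and Mgl2 were below the median in both, and Mrc1 was lower in KO by under 2-fold. Agrn, for the matrix protein agrin, was the 1 gene of the 40 over 2-fold lower in KO under vehicle, and others were lower there by smaller folds. It read 278 and 479.7 in WT and 74.1 and 1459 in KO (3.04-fold higher under lipid A and at least 3.30-fold lower under vehicle, where KO was below its median). Below 3-fold, Itgav, an integrin chain, at 5129 and 6548 in WT and 6720.1 and 17757 in KO (2.71-fold), was a bright gene of the same form. Plaur, the urokinase receptor, read 3642 and 5204 in WT and 4214 and 11253 in KO (2.16-fold). Of the 40 genes, 13 had further detected probe sets, all pointing the same way in 11. Il23a, Il1rn, Tslp, Sphk1, Penk, Retnla and Agrn were chosen for mention after their values were seen.

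In 2 lists every measured member reached the median in both arrays. All 17 measured of 24 listed ribosomal protein genes were higher in KO on their brightest probe sets, with a median log2 difference of 0.16 and 0 over 2-fold. Of the further probe sets of Rps9, one was lower, at 18203 in WT and 14192 in KO, and the other higher. The SD between probe sets of a gene was 0.41. Of 27 cytoskeleton and migration genes, 24 were higher, with a median of 0.30 and 4 over 2-fold. Of all genes measured in both arrays 49.1% were higher, and 2.9% of all genes were over 2-fold higher. These 4 were S100a4, Marcksl1 (2.54-fold), Marcks (2.51-fold) and Rhob (2.24-fold), of which the Marcks genes encode actin-binding substrates of protein kinase C and Rhob a small GTPase. Of 21 genes of the unfolded protein response 1 was over 2-fold higher, with a median of 0.20, and 0 of 12 heat shock and 0 of 15 autophagy genes were over 2-fold in either direction. Over the 9685 genes that reached the median in both arrays the median was -0.01. Of 21 protocadherin beta genes, a cluster known to depend on Setdb1 in other cells, 0 reached the median in both arrays, and of 19 germline genes silenced by methylation 1 did, so both lists were at background.

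Genes next to each other were examined because the LysM Cre lies in Lyz2 and the floxed allele in Setdb1. Of the 20 measured neighbours of Lyz2, 13 were detected, with a median log2 difference of 0.13 and 0 over 2-fold in either direction. Of the 20 neighbours of Setdb1, 17 were detected, with a median of -0.01, 1 over 2-fold higher and 1 over 2-fold lower, the latter being Ctsk. There were 19 runs of at least 3 adjacent measured genes that were all over 2-fold the same way, many with signals below the median. Without raising dim signals, 10.3% of the detected genes were over 2-fold lower and 10.6% higher. How many such runs gene order alone would give was not tested. The run of 4 genes was Gimap8, Gimap9, Gimap4 and Gimap6, a family of lymphocyte GTPases, higher in KO at 9.14 in WT and 247 in KO for Gimap8, 2.47 in WT and 174 in KO for Gimap9, 57.6 in WT and 514 in KO for Gimap4 and 113 in WT and 308 in KO for Gimap6. Further runs were the T cell receptor genes Cd3g, Cd3d and Cd3e, higher at dim KO signals of 102, 151 and 96.5, where the KO median was 75.8. With dim signals raised, 1 of 17 measured T and NK cell markers was over 2-fold higher and 0 over 2-fold lower (2.9% and 2.65% over all genes). Another run was Ifit2, Ifit3 and Ifit1bl1, lower at KO signals of 11740.4, 3528 and 896. Members of such families share sequence, and their probe sets may cross-read.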

How the data were processed

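Total RNA of 4 macrophage cultures was hybridised to Affymetrix Mouse Genome 430 2.0 arrays, 1 array per condition. The authors deposited 1 table of linear intensity per probe set, and the sources used here do not state their software. All 4 arrays had a trimmed mean of 500.004 (2% trimmed at each end), which points to a scaling of whole arrays, and no further normalization was applied. Of 45101 probe sets, 64 controls were left out, 34945 had 1 gene symbol, 932 had several and 9160 had none, and 34741 of the single-symbol probe sets matched a gene number in the RefSeq gene table (GRCm38.p6). The brightest probe set by mean log2 signal over the 4 arrays stood for each of the 18193 genes.

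A gene was detected when the brighter lipid A array reached its median over probe sets that are not controls. A fold is as measured when both signals reach their array's median and otherwise a lower bound against the median of the dimmer array. Not induced means that WT lipid A over WT vehicle, with signals below the median raised to it, was at most 2-fold. Where WT vehicle was below its median this ratio is a lower bound, and induction in WT is then not settled. Examples are Tslp, with 8.57 and 121 in WT and a raised ratio of 1.86, and Marco, with 6.88 and 91.6 and a raised ratio of 1.41. This induction shares the WT lipid A array with the comparison, and the WT vehicle array with the description of the same genes under vehicle. Thresholds of 2 and 3 were taken from the study, which applied them to upregulated genes and also required present and increased labels. Such labels were not used here, and the thresholds were applied in both directions. The 65 gene lists hold 1209 genes, of which 1092 were measured, and lists with dim members are given over all measured members with signals below the median raised to it.

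Members, lists and the rule for named genes were chosen with earlier results of these data known. The rule named Setdb1 and Lyz2, the 20 largest measured folds and the 10 largest bounds in each direction, the 5 brightest genes over 2-fold in each direction, up to 4 members of each list, and runs of adjacent genes. Besides those marked in the text, Csf3r, Cd22, Slc39a14, Tlr4, Ly96, Mx2, Dhx58, Gclm, Ccl17, Il4ra, Timd4, Arg1, Mgl2, Mrc1 and the genes at the threshold were named after their values were seen. Alternatives were other scalings, filters on dim signals and ways from probe sets to genes. Precision is limited by the number of arrays, and no p-value was computed. Python 3.11.15, numpy 2.4.6, pandas 2.3.3 and matplotlib 3.10.9 were used.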

Additional observations from a re-analysis of the deposited data

Results flagged for a closer look

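Among 9160 probe sets with no gene name in the annotation used here, which enter no comparison above, 3430 were detected under lipid A, and the 3 largest differences in each direction with both lipid A arrays at or above the median are given with their log2 difference of KO over WT and their lipid A signals. Lower in KO were 1450808_at (-2.39, with 1550.4 in WT and 296 in KO), 1418483_a_at (-2.02, with 5233 and 1293) and 1423954_at (-2.01). Higher in KO were 1428719_at (4.63, with 105 in WT and 2591 in KO), 1428720_s_at (4.20, with 152 and 2786) and 1417185_at (3.56, with 242 and 2860). In all, 5 such probe sets were over 3-fold lower and 20 over 3-fold higher.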

How the results depend on the processing

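No paired analysis was possible because each condition has 1 array. The counts of genes moved by over 1.5 times with the treatment of dim signals and not with the scaling of the arrays, the choice of probe set or an induction threshold of 1.5-fold. With both arrays required at the median, 365 genes were over 2-fold lower and 349 higher, 61 over 3-fold lower and 117 higher, and 73 of the latter were not induced in WT. With no filter these counts were 2972, 3025, 1960, 2020 and 1976, and with dim signals raised to the median 483, 528, 81, 158 and 114.

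Changes of sign were recorded only for named genes over 2-fold and for lists whose median log2 difference was over 0.41 in size. Smaller ones are left out, as for the monocyte genes, with a median of 0.27 that became -0.03 with dim signals raised. With the median over detected probe sets, the log2 difference changed sign for Egln3 (-0.22), Psrc1 (0.28), Speg (0.77) and Zbtb46 (3.30) and for the medians of the Ms4a family (0.37) and of iron and heme handling (0.088). It changed sign for Ccdc84 (0.12) when probe sets without a shared-match suffix came first and for Zfp324 (0.004) when dim signals were raised. With both arrays at the median, the medians of iron and heme handling (0.10), of eosinophil and mast cell markers (-0.19) and of purinergic receptors (-0.25) changed sign, and with no filter those of iron and heme handling (0.10), of TNF ligands and receptors (-0.056) and of protocadherin beta genes (0.22). Signals near background limit these values, and the cause of the other changes was not tested.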
